A study of Mus musculus with 12 samples.

Results

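Axon guidance ligands and receptors are the secreted, membrane-anchored and transmembrane proteins by which a growing axon, or a migrating cell, reads its surroundings. The set described here holds the Eph receptors and their ephrin ligands, the semaphorins with their plexin and neuropilin receptors, the Slits with their Robo receptors, and the netrins and netrin-Gs with Dcc, the Unc5 receptors, neogenin (Neo1) and the repulsive guidance molecules Rgma and Rgmb. Members were chosen by gene symbol alone, which took 74 of the 55487 genes counted, and the rule uses no measured value. Of these, 72 held enough counts to be tested. Epha6 and Plxnb3, an Eph receptor and a plexin, had 38 and 33 counts over all 12 libraries and were not tested.

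In the nervous system these cues attract or repel the growth cone at the tip of an axon, often by changing its actin skeleton. Slits are secreted repellents read by Robos, netrin-1 attracts through Dcc and repels through Unc5 receptors, class 3 semaphorins act on a neuropilin joined to a plexin, and ephrins, which stay on the cell surface, signal by contact to Eph receptors on the neighbouring cell. The same molecules act outside the nervous system, in tissue boundaries of the early embryo, in vessel growth and, for RGMs and neogenin, in BMP signalling.

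RNA was sequenced in bulk from embryoid bodies, floating aggregates in which pluripotent cells start to differentiate, made from mouse epiblast stem cells (EpiSC), a primed pluripotent cell type obtained here from embryonic stem cells in culture. All 12 libraries came from cells that carry a doxycycline-inducible transgene for Mixl1 with a FLAG tag. Mixl1 is a homeodomain transcription factor of the primitive streak, and the series asks how the time of its induction changes expression. D1Dox_d2 received doxycycline at 1 µg/mL and was collected on day 2, and D3Dox_d4 received the same dose and was collected on day 4. NoDox_d2 and NoDox_d4 were grown without the drug and collected on those days, with 3 libraries in each group. The digit after the D is not explained in the labels. Neither do they say whether the line is 1 clone, nor that replicates were separate cultures, so p-values measure the spread between these libraries, which may be technical. The libraries analysed here include no doxycycline-treated cells without the transgene, so effects of the drug and of Mixl1 cannot be told apart.

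Libraries held 24100487 to 28020036 counts. Values are given as CPM, read-pair counts scaled to library size by TMM, and 3 counts correspond to 0.106 to 0.130 CPM. Mixl1 itself, which a gene count cannot split into transgene and endogenous gene, had 392.2, 362 and 387 CPM in D1Dox_d2, against 91.0, 0.593 and 1.15 CPM in NoDox_d2. At day 4 it had 478, 417 and 449.6 CPM in D3Dox_d4, against 1.62, 1.83 and 1.11 CPM in NoDox_d4. Its log2 fold change was 3.62 ± 1.22, adjusted p 0.0453 at day 2 and 8.20 ± 1.57, adjusted p 0.00311 at day 4 (edgeR), and an exact two-sided permutation test gave p = 0.1 on both days, the smallest p that 3 against 3 allows. The library labelled NoDox_d2 replicate 1 thus held far more Mixl1 than either of its group mates. Without it the day 2 change was 8.74, and the call at day 2 was lost without any other single library of the comparison (adjusted p 0.0686 to 0.0933).

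The first replicate of each NoDox group stood apart. Its Pearson correlation with its group mates, over log-scaled expression, was 0.957 to 0.961, against 0.987 to 0.992 for all other replicate pairs. Among the 72 members tested, 8 lay more than 2 times above the mean of replicates 2 and 3 in this library on both days (Ephb4, Nrp1, Nrp2, Robo4, Sema3e, Sema5a, Sema6a and Unc5b). On both days 10 members lay more than 2 times below it (Dcc, Epha10, Epha7, Ephb1, Ntng2, Plxna4, Sema6b, Slit1, Unc5a and Unc5c). Where a call at day 2, at day 4 or with time was lost without 1 of these libraries, the value without it stands beside the result. So it does where the called change moved by over 1.5 times. Calls gained without 1 of these libraries are given for some members only.

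The marker genes of other cell types also moved with the groups. All 8 fibroblast markers were higher in D1Dox_d2, with a summed level of 1577 to 1926 CPM, against 198 to 279 CPM in NoDox_d2. All 8 neuron markers were higher in D3Dox_d4, with a sum of 1452 to 1624 CPM, against 161 to 547 CPM in NoDox_d4. Of 7 endothelial markers, 4 were higher in D1Dox_d2 (sum 35.4 to 41.2 CPM, against 3.24 to 9.25 CPM in NoDox_d2), and Emcn was at 0 counts in all libraries of both Dox groups. Of 6 markers of the labelled cell type, primed epiblast, 3 were lower in D1Dox_d2 (401 to 434 CPM, against 731 to 988 CPM in NoDox_d2). At day 4, 4 of them were lower and 1 higher in D3Dox_d4 (174 to 199 CPM, against 244 to 336 CPM in NoDox_d4). None of the 6 was at 0 in any group. Of 5 neural crest markers, 1 was higher in D1Dox_d2 (52.5 to 62.0 CPM, against 32.5 to 37.9 CPM in NoDox_d2) and 2 in D3Dox_d4 (60.05 to 70.5 CPM, against 46.0 to 84.9 CPM in NoDox_d4). The part of such cells in the results on guidance genes was not tested, and in bulk RNA fewer cells of a type and less RNA per cell cannot be told apart.

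At day 2 doxycycline went with higher levels of neuropilins, Plxna4, Epha3, netrin-1, Slit2 and Robo2, and with lower levels of most ephrins that passed the test. At day 4 Slit2, Robo2, Plxna4 and Unc5d were higher, and so was Dcc. In D1Dox_d2, 19 of the 72 members were called higher than in NoDox_d2 and 12 lower at an adjusted p under 0.05. Of all 18109 genes tested, 14.9% were called higher, 13.4% lower and 28.4% in either direction, against 43.1% of the members in either direction. The members' median log2 fold change was -0.09 and their median absolute change 0.81, against -0.03 and 0.39 over all genes. In 22 members all D1Dox_d2 libraries lay above all NoDox_d2 libraries (23.9% of all genes), and in 16 all lay below (22.1%, 46% in either direction). In D3Dox_d4, 13 members were called higher than in NoDox_d4 and 7 lower, 27.8% in all. The background was 13.4% higher, 10.2% lower and 23.5% in either direction, so with all 12 libraries fitted the members' share lay near it. The median change was 0.10 and the median absolute change 0.55, against -0.03 and 0.36 over all genes. In 24 members the D3Dox_d4 libraries lay above all NoDox_d4 libraries (22% of all genes), and in 10 below (18.6%, 40.6% in either direction).

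**Figure D1:**
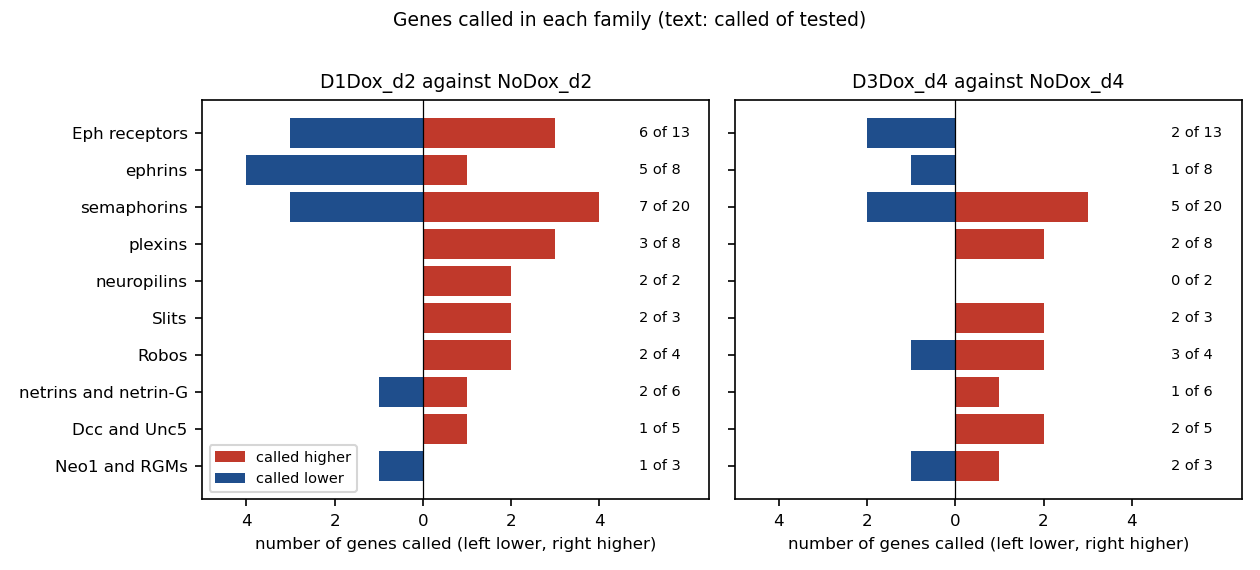
Number of genes called lower (bars to the left) and higher (bars to the right) in each family, D1Dox_d2 against NoDox_d2 in the left panel and D3Dox_d4 against NoDox_d4 in the right panel, with the number called of the number tested beside each bar. Ephrins have 4 genes lower and 1 higher at day 2, while Slits have 2 of 3 genes higher on both days.

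Of the calls, 20 of 31 at day 2 and 16 of 20 at day 4 stood when each compared library was left out in turn, and none reversed. The count lower at day 2 was 7 without D1Dox_d2 replicate 2 (background 7.15%) and 18 without NoDox_d2 replicate 1 (background 19.5%). At day 4, 21 were higher and 10 lower without NoDox_d4 replicate 1, where the background was 13.2% and 9.63%. The nearness of the day 4 share to the background thus depended on that library. Without the first replicate of both NoDox groups, the counts were 23 higher and 25 lower at day 2, where the background was 26.8% and 26.4%. At day 4 they were 33 higher and 18 lower, where it was 20.6% and 17.9%. On both days 6 members were called higher (Plxna4, Robo1, Robo2, Slit2, Slit3 and Unc5d) and 3 lower (Efnb2, Epha1 and Rgma). A further 22 were called at day 2 and not at day 4, and 11 at day 4 and not at day 2, which is no test of a difference between the days. The other 30 members tested were called on neither day. The days share no libraries. Across the 72 members the log2 fold changes of the days had a Pearson r of 0.48 and a Spearman correlation of 0.38, a description over genes that are not independent.

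**Figure D2:**
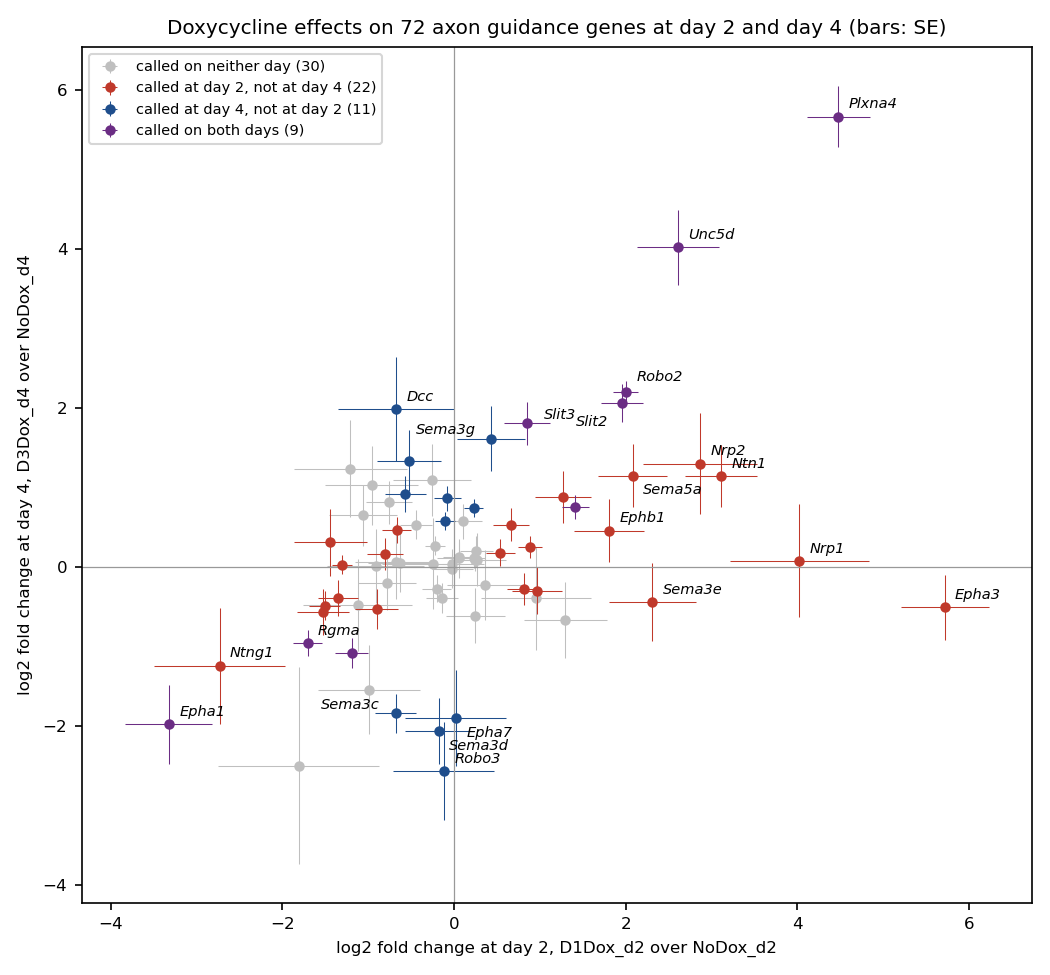
Log2 fold change of each of the 72 members tested at day 2 (D1Dox_d2 over NoDox_d2, horizontal axis) and at day 4 (D3Dox_d4 over NoDox_d4, vertical axis), with bars of 1 SE and colours for the days on which a member was called. Plxna4 lies far up on both axes, at 4.48 and 5.66, while Epha3 lies at 5.72 on the day 2 axis and -0.51 on the day 4 axis.

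In the Slit and Robo system, 4 genes were called higher on both days: Slit2, Slit3, Robo1 and Robo2. Slit2, a secreted repellent of the midline, had 77.9, 80.0 and 113 CPM in D1Dox_d2, against 28.9, 21.0 and 19.9 CPM in NoDox_d2. At day 4 it had 174, 209 and 235 CPM in D3Dox_d4, against 32.7, 57.2 and 58.9 CPM in NoDox_d4. All Dox libraries lay above all NoDox libraries of their day, and the log2 fold changes were 1.96 ± 0.24, adjusted p 0.000171 at day 2 and 2.06 ± 0.24, adjusted p 0.000131 at day 4 (edgeR). Slit3, a close relative that is also widely expressed in mesoderm, had 98.8, 107 and 127 CPM in D1Dox_d2, against 96.4, 39.8 and 48.2 CPM in NoDox_d2. In NoDox_d2 its replicate 1 lay close to the D1Dox_d2 libraries while the other replicates were lower, and the change of 0.85 ± 0.26, adjusted p 0.0333 lost its call without any single library except that one (adjusted p 0.0554 to 0.125). At day 4 Slit3 had 102, 117 and 133 CPM in D3Dox_d4, against 36.7, 34.2 and 30.1 CPM in NoDox_d4. There the groups were well separated, with a change of 1.80 ± 0.27, adjusted p 0.000727. Slit1, the more neural family member, was not called on either day, with changes of -1.06 ± 0.40 at day 2 and 0.65 ± 0.38 at day 4. Without NoDox_d2 replicate 1 it was called lower at day 2 (-1.42, adjusted p 0.00516).

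Among the receptors, Robo1 had 105, 101 and 121 CPM in D1Dox_d2, against 46.2, 41.9 and 34.7 CPM in NoDox_d2. Its change was 1.41 ± 0.16, adjusted p 8.21e-05. At day 4 Robo1 had 117, 160.1 and 175 CPM in D3Dox_d4, against 97.2, 83.0 and 88.4 CPM in NoDox_d4, a smaller separation with a change of 0.75 ± 0.15, adjusted p 0.00473. Robo2, which with Robo1 carries most Slit repulsion of axons, had 35.6, 32.3 and 40.7 CPM in D1Dox_d2, against 8.16, 10.4 and 8.55 CPM in NoDox_d2. At day 4 Robo2 had 183, 230.0 and 250.3 CPM in D3Dox_d4, against 47.3, 45.8 and 51.3 CPM in NoDox_d4. The ranges did not overlap on either day, and the changes of 2.00 ± 0.15, adjusted p 3.29e-06 at day 2 and 2.20 ± 0.14, adjusted p 1.85e-06 at day 4 had the same sign. The NoDox level of Robo2 at day 4 was itself above that of D1Dox_d2. Robo3, which in commissural neurons keeps axons from responding to Slit before they cross the midline, fell at day 4. It had 1.48, 4.06 and 3.26 CPM in D3Dox_d4, against 3.55, 24.9 and 23.8 CPM in NoDox_d4. The groups overlapped, since NoDox_d4 replicate 1 lay among the D3Dox_d4 libraries, and the change was -2.57 ± 0.62, adjusted p 0.0111. Robo4, the Robo of endothelium, had 1.14 CPM or less in every other library and reached 6.36 CPM in NoDox_d2 replicate 1. It was called on neither day (changes of -1.81 ± 0.94 and -2.50 ± 1.24). At day 4 all 8 neuron markers were higher along with Slit2, Robo1 and Robo2. At day 2, 2 of the 8 were called higher and their sums overlapped (314 to 389 CPM in D1Dox_d2, against 229 to 339 CPM in NoDox_d2), while all 8 fibroblast markers were higher. The part of either list in these changes was not tested.

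The sequences before a listed start of the Slit and Robo genes called on both days are shown because the pairs differ in the promoter letters most common among the members. Each line gives the 250 bases before a RefSeq start site (GRCm38.p6), 5′ to 3′ on the gene's strand, with matches on either strand to GGGCGG, the core of the GC box, and to TATAAA, the TATA box, in capitals. Slit2 lies on the plus strand of chr5 (gene chr5:47983138-48307733, window chr5:47982905-47983154, reaching past the annotated gene start), Slit3 on the plus strand of chr11 (gene chr11:35121224-35708507, window chr11:35121206-35121455, most of it after the annotated gene start), and both Robos on chr16. For Robo1, on the plus strand (gene chr16:72308306-73046095), the window is chr16:72662899-72663148, which precedes a start inside the annotated gene. Robo2, on the minus strand (gene chr16:73891839-74411825), has 3 starts in the table, and the one printed, chr16:74411826-74412075, directly precedes the annotated gene.
Slit2: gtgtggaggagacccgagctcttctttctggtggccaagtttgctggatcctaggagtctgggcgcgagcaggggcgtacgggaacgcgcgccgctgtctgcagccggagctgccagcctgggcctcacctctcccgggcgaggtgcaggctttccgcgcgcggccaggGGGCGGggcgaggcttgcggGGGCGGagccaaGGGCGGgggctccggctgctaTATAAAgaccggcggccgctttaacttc
Slit3: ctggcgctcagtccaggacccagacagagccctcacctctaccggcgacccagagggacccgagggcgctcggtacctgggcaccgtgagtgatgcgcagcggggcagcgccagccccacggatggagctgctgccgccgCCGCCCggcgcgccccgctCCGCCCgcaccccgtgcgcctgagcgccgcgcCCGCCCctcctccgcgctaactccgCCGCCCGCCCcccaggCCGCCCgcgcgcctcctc
Robo1: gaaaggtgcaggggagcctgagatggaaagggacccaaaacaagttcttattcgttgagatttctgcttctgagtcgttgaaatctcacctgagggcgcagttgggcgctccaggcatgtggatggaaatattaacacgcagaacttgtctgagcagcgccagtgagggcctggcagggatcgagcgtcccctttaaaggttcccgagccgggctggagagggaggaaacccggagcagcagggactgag
Robo2: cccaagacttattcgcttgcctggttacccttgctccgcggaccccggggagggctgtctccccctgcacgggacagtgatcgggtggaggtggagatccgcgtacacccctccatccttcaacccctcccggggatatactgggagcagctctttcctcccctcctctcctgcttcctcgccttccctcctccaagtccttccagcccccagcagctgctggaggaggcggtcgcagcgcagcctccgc

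The Slit2 window held 3 matches to GGGCGG and 1 to TATAAA, and the Slit3 window 6 to GGGCGG. Neither Robo window held a match to any motif searched. Besides the GC box and the TATA box, a search on both strands covered the homeodomain core site TAATTA and the P3 palindrome of paired-type homeodomains. Over 32851 promoters of the same length, 32.7% held the GC box, 12.4% the TATA box, 4.84% the homeodomain core and 0.463% the palindrome. For 63 members the table gave 81 starts, of which 57 held the GC box (70.4%), 4 the TATA box, 3 the homeodomain core and 0 the palindrome. A match is a run of letters, not a shown binding site, and starts of 1 gene can share sequence.

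**Figure D3:**
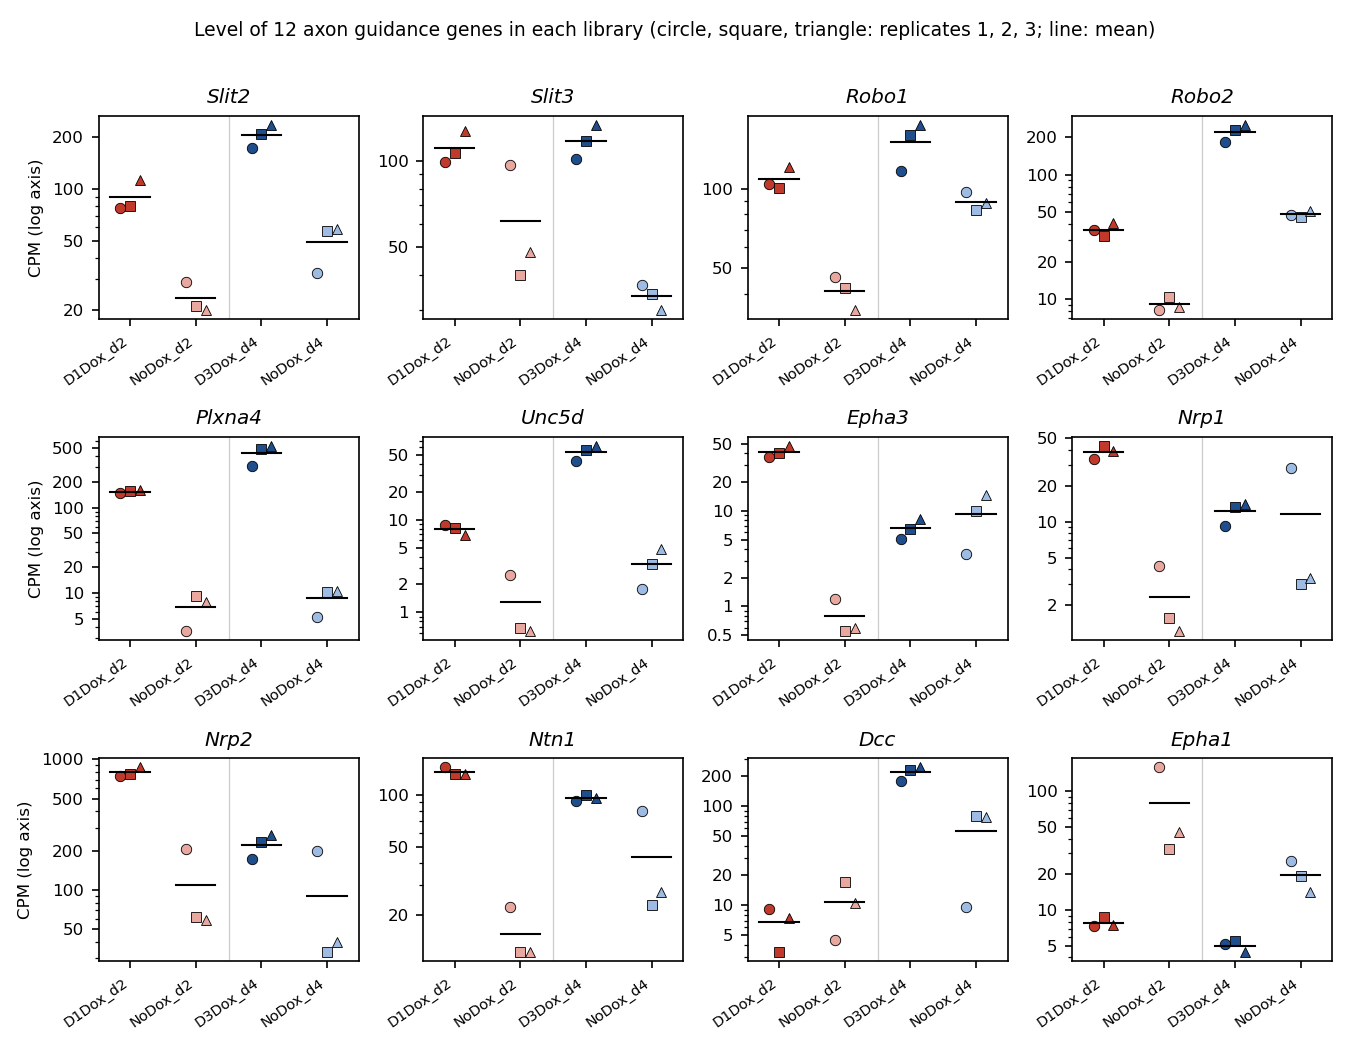
Level in each library, in CPM on a log axis, of 12 guidance genes, with the Dox group left of the NoDox group of the same day. Symbols mark replicates 1 (circle), 2 (square) and 3 (triangle) and lines the group mean. For Plxna4 every Dox library lies at 148 CPM or more and every NoDox library at 10.5 CPM or less, while for Nrp1 the circle of NoDox_d4 lies above all D3Dox_d4 libraries.

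In the netrin system Ntn1 rose at day 2, Dcc at day 4 and Unc5d on both days. Netrin-1 (Ntn1), the secreted cue of the floor plate, had 144, 132 and 131 CPM in D1Dox_d2, against 22.3, 12.3 and 12.3 CPM in NoDox_d2. The ranges lay far apart, with a change of 3.11 ± 0.42, adjusted p 0.000309 (edgeR). At day 4 Ntn1 had 91.6, 99.4 and 95.8 CPM in D3Dox_d4, against 79.9, 23.1 and 27.3 CPM in NoDox_d4. Replicate 1 of NoDox_d4 lay near the D3Dox_d4 libraries, and the change of 1.14 ± 0.39, adjusted p 0.0543 was not called. Without that library it was called higher (1.93, adjusted p 0.000147). Dcc, the attractive netrin receptor, was not called at day 2 (-0.68 ± 0.68). At day 4 it had 181, 232 and 248 CPM in D3Dox_d4, against 9.70, 79.2 and 78.4 CPM in NoDox_d4. All D3Dox_d4 libraries lay above NoDox_d4, and the change of 1.98 ± 0.65, adjusted p 0.0457 lost its call without any single library except NoDox_d4 replicate 1, the lowest one (adjusted p 0.0585 to 0.111). With only the libraries of the comparison fitted it was also lost (adjusted p 0.0672).

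Unc5d, a repulsive netrin receptor that also binds the adhesion molecule Flrt2, had 8.79, 8.18 and 6.80 CPM in D1Dox_d2, against 2.54, 0.672 and 0.632 CPM in NoDox_d2. At day 4 Unc5d had 43.0, 56.5 and 61.8 CPM in D3Dox_d4, against 1.77, 3.33 and 4.84 CPM in NoDox_d4. Levels in NoDox_d2 were 0.672 and 0.632 CPM in replicates 2 and 3, a few times the floor of 3 counts. The changes were 2.61 ± 0.48, adjusted p 0.00231 at day 2, or 3.58 without NoDox_d2 replicate 1, and 4.01 ± 0.47, adjusted p 0.000134 at day 4. Unc5b, the Unc5 receptor best known from vessels, had 150.1, 179 and 199.6 CPM in D1Dox_d2, against 189, 39.1 and 44.4 CPM in NoDox_d2. NoDox_d2 replicate 1 lay within the D1Dox_d2 range and the others far below it, and the change of 0.96 ± 0.64 was not called. Without that library it was called higher at day 2 (2.06, adjusted p 0.0138). Unc5a and Unc5c were called on neither day, and without NoDox_d2 replicate 1 Unc5a was called lower at day 2 (-1.59, adjusted p 0.0330).

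Of the other ligands, netrin-4 (Ntn4), a basement membrane netrin that binds laminin, had 30.8, 28.5 and 31.1 CPM in D3Dox_d4, against 10.02, 18.6 and 19.3 CPM in NoDox_d4. All D3Dox_d4 libraries lay above NoDox_d4, with a rise of 0.92 ± 0.23, adjusted p 0.0129. At day 2 Ntn4 had the opposite sign (-0.57 ± 0.24) and was not called, though without NoDox_d2 replicate 1 it was called lower (-0.70, adjusted p 0.0406). Netrin-G1 (Ntng1), a membrane-anchored relative that does not bind Dcc, had 0.265, 0.529 and 0.477 CPM in D1Dox_d2, against 6.602, 1.11 and 0.744 CPM in NoDox_d2. Its fall of -2.73 ± 0.76, adjusted p 0.0206 rested on the first NoDox library. Without it the change was -1.14 and the call was lost, as it was without any single D1Dox_d2 library (adjusted p 0.0544 to 0.0760). Rgma, a membrane-anchored ligand of neogenin and a BMP co-receptor, had 18.3, 17.04 and 18.2 CPM in D1Dox_d2, against 49.1, 71.3 and 54.7 CPM in NoDox_d2. At day 4 Rgma had 50.2, 59.4 and 65.2 CPM in D3Dox_d4, against 94.0, 108 and 138 CPM in NoDox_d4. It fell on both days without overlap, by 1.71 ± 0.17 (adjusted p 3.94e-05) at day 2 and by 0.96 ± 0.17 (adjusted p 0.00172) at day 4. Rgmb, its close relative, rose at day 4 instead, with 103, 107 and 106 CPM in D3Dox_d4, against 55.1, 65.5 and 68.9 CPM in NoDox_d4, a change of 0.74 ± 0.11, adjusted p 0.000667. Their receptor Neo1 was not called, with changes of -0.02 ± 0.12 at day 2 and 0.03 ± 0.12 at day 4. The other netrins, Ntn3 and Ntn5, and netrin-G2 (Ntng2) were called on neither day.

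Eph receptors and ephrins moved in both directions at day 2, where 3 of 13 receptors tested were called higher and 3 lower, and 1 of 8 ephrins higher and 4 lower. Epha3, a receptor of A-class ephrins found in mesenchyme and motor neurons, had 37.1, 40.5 and 47.6 CPM in D1Dox_d2, against 1.20, 0.553 and 0.595 CPM in NoDox_d2. Levels in NoDox_d2 were 0.553 to 1.20 CPM, and the rise of 5.72 ± 0.51, adjusted p 1.74e-05 (edgeR) was the largest of any member at day 2. At day 4 Epha3 had 5.02, 6.45 and 8.24 CPM in D3Dox_d4, against 3.51, 10.002 and 14.6 CPM in NoDox_d4. The groups overlapped there, and the change of -0.51 ± 0.41 was not called, though without NoDox_d4 replicate 1 it was called lower (-0.91, adjusted p 0.0334). Ephb1, a receptor of B-class ephrins that guides retinal axons, had 23.1, 25.8 and 22.4 CPM in D1Dox_d2, against 3.18, 9.17 and 8.07 CPM in NoDox_d2, a rise of 1.81 ± 0.41, adjusted p 0.00773. Ephb6, a receptor without kinase activity, was called higher at 0.97 ± 0.29. That call was lost without any single library except NoDox_d2 replicate 1 (adjusted p 0.0582 to 0.113).

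Epha1, an epithelial Eph receptor, fell on both days. It had 7.35, 8.71 and 7.54 CPM in D1Dox_d2, against 159, 32.4 and 45.0 CPM in NoDox_d2. NoDox_d2 replicate 1 was several times above its group mates, and the change was -3.33 ± 0.51, adjusted p 0.000732, or -2.31 without that library. At day 4 Epha1 had 5.21, 5.46 and 4.46 CPM in D3Dox_d4, against 26.1, 19.5 and 14.2 CPM in NoDox_d4, without overlap, and its change was -1.98 ± 0.49, adjusted p 0.0135. That call was lost without D3Dox_d4 replicate 3 (adjusted p 0.0571). Epha4, which controls hindbrain and spinal boundaries, fell at day 2 by 1.36 ± 0.23 (adjusted p 0.00148). Epha2, a receptor widely expressed in epithelia, fell by 0.90 ± 0.25 at day 2, a call lost without any single D1Dox_d2 library (adjusted p 0.0556 to 0.0651). Epha7, a receptor of the neural plate and cortex, had 32.0, 39.6 and 40.3 CPM in D3Dox_d4, against 27.9, 178 and 213 CPM in NoDox_d4. NoDox_d4 replicate 1 lay below all D3Dox_d4 libraries and the others far above them. The change of -1.91 ± 0.61, adjusted p 0.0406 lost its call without any single library other than that one (adjusted p 0.101 to 0.137).

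Of the ligands, the B-class ephrins, which span the membrane and can signal back into their own cell, were all called lower at day 2. Efnb1, the ephrin with the most counts per kilobase, had 56.9, 57.3 and 59.3 CPM in D1Dox_d2, against 108, 192 and 193 CPM in NoDox_d2. The 3 D1Dox_d2 libraries lay together and below all NoDox_d2 libraries, and the change was -1.51 ± 0.18, adjusted p 0.000139. Efnb2, a ligand of somite boundaries and arteries, had 95.8, 87.2 and 98.1 CPM in D1Dox_d2, against 167, 237 and 239 CPM in NoDox_d2. At day 4 Efnb2 had 91.4, 87.9 and 95.2 CPM in D3Dox_d4, against 134, 217 and 231 CPM in NoDox_d4. Its changes were -1.19 ± 0.19, adjusted p 0.000959 at day 2 and -1.09 ± 0.19, adjusted p 0.00176 at day 4, without overlap. Efnb3 fell at day 2 by 0.80 ± 0.21 (adjusted p 0.0151), a call that needed replicates 2 and 3 of both groups (without 1 of these libraries, adjusted p 0.0524 to 0.0600). Efna1, a membrane-anchored A-class ephrin, had 5.72, 6.35 and 5.33 CPM in D1Dox_d2, against 30.1, 6.84 and 10.3 CPM in NoDox_d2. Its change of -1.44 ± 0.43, adjusted p 0.0270 was -0.58 and not called without NoDox_d2 replicate 1, and the call was also lost without any single D1Dox_d2 library (adjusted p 0.0566 to 0.0894). Efna5, a repellent in topographic maps, was the ephrin that rose, by 0.88 ± 0.14 (adjusted p 0.000955). Neural progenitor markers, of which 3 of 5 were lower at day 2, moved with the falls (summed 350 to 398 CPM in D1Dox_d2, against 508 to 830 CPM in NoDox_d2, none at 0). So did paraxial mesoderm markers, of which 4 of 6 were lower at day 2 (14.6 to 18.2 CPM in D1Dox_d2, against 65.0 to 148 CPM in NoDox_d2) and 3 at day 4 (125 to 143 CPM in D3Dox_d4, against 148 to 351 CPM in NoDox_d4). None was at 0 in a whole group, but Msgn1 had 0.0362, 0.0737 and 0 CPM in D3Dox_d4 and was not tested. In NoDox_d4 Meox1 had 235 CPM in replicate 1, against 36.2 and 37.6 CPM in replicates 2 and 3. The part of the neural progenitor and paraxial mesoderm markers in the falls was not tested.

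Both neuropilins, co-receptors that bind class 3 semaphorins and vascular growth factors, were called higher at day 2. Nrp2 had 746, 777 and 872 CPM in D1Dox_d2, against 207, 62.8 and 58.8 CPM in NoDox_d2. Nrp1 had 33.6, 42.9 and 39.3 CPM in D1Dox_d2, against 4.27, 1.58 and 1.23 CPM in NoDox_d2. All D1Dox_d2 libraries lay above NoDox_d2, and the changes were 2.86 ± 0.67, adjusted p 0.00872 for Nrp2 and 4.02 ± 0.81, adjusted p 0.00392 for Nrp1 (edgeR), or 3.70 and 4.77 without NoDox_d2 replicate 1. At day 4 Nrp2 had 173, 233 and 264 CPM in D3Dox_d4, against 199, 33.7 and 39.8 CPM in NoDox_d4. For Nrp1 the day 4 libraries had 9.25, 13.2 and 14.2 CPM in D3Dox_d4, against 28.5, 3.01 and 3.42 CPM in NoDox_d4. In both genes NoDox_d4 replicate 1 lay within or above the D3Dox_d4 range. Neither was called, with changes of 1.30 ± 0.63 for Nrp2 and 0.07 ± 0.71 for Nrp1. Without that library Nrp2 was called higher (2.60, adjusted p 0.00301), and so was Nrp1 (1.93, adjusted p 0.00665). The fibroblast markers, with all 8 higher at day 2, and 4 of 7 endothelial markers moved with the neuropilins there. The endothelial marker Cdh5 did not (-0.61 ± 1.08, not called), and Tie1 and Emcn held too few counts to be tested. The part of such cells was not tested.

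Among the plexins, the transmembrane receptors that carry the semaphorin signal, Plxna4 had the largest change at day 4. It had 148, 155 and 159.9 CPM in D1Dox_d2, against 3.60, 9.29 and 7.96 CPM in NoDox_d2. At day 4 Plxna4 had 307, 487 and 527 CPM in D3Dox_d4, against 5.21, 10.4 and 10.5 CPM in NoDox_d4. No Dox library came near a NoDox library, and the changes were 4.48 ± 0.37, adjusted p 9.07e-06 at day 2 and 5.66 ± 0.39, adjusted p 2.60e-06 at day 4. Plxna2, a receptor of class 6 semaphorins, rose at day 2 by 0.81 ± 0.20, a call lost without NoDox_d2 replicate 3 (adjusted p 0.0578). Plxnc1, the receptor of Sema7a, rose by 0.66 ± 0.21, a call lost without any single library other than NoDox_d2 replicate 1 (adjusted p 0.0678 to 0.129). Plxna3 was called at day 4, with a change of 0.86 ± 0.16, adjusted p 0.00224. Plxnb2, the plexin with the most counts per kilobase on average over the 12 libraries, was not called at either day (0.23 ± 0.13 and 0.11 ± 0.13). Plxnd1, the direct receptor of Sema3e, changed by 0.57 ± 0.22 at day 4 and was not called, though without NoDox_d4 replicate 1 it was called higher (0.94, adjusted p 0.000656).

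Semaphorins held 7 calls of 20 tested at day 2 and 5 at day 4, shares near those of all genes (28.4% and 23.5%). Sema3e, a secreted class 3 semaphorin known from vessel patterning, had 87.8, 101 and 109 CPM in D1Dox_d2, against 31.7, 12.1 and 16.2 CPM in NoDox_d2. The groups were separate, with a rise of 2.31 ± 0.50, adjusted p 0.00617. Sema5a, a transmembrane semaphorin with thrombospondin repeats, had 107, 116 and 133 CPM in D1Dox_d2, against 48.3, 20.1 and 15.5 CPM in NoDox_d2. Its rise was 2.08 ± 0.40, adjusted p 0.00319, or 2.72 without NoDox_d2 replicate 1. Sema6d rose by 1.27 ± 0.33, a call lost without D1Dox_d2 replicate 3 (adjusted p 0.0501). Sema3f rose by 0.54 ± 0.17, a call lost without any single library of the comparison (adjusted p 0.0530 to 0.0979). The 3 semaphorins that fell at day 2 were all transmembrane class 4 members. Sema4d, a ligand of Plxnb1, had 13.4, 13.9 and 13.9 CPM in D1Dox_d2, against 29.8, 35.5 and 36.9 CPM in NoDox_d2, a tight fall of -1.31 ± 0.12, adjusted p 1.66e-05. Sema4f changed by -1.52 ± 0.30, adjusted p 0.00358. Sema4g changed by -0.67 ± 0.17, and its call was lost without D1Dox_d2 replicate 2 or NoDox_d2 replicate 3 (adjusted p 0.0519 and 0.0524).

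At day 4 the secreted Sema3c, which guides neural crest and outflow tract cells, had 8.71, 8.63 and 9.19 CPM in D3Dox_d4, against 35.02, 31.1 and 29.1 CPM in NoDox_d4. Its libraries were tight and separate, with a change of -1.84 ± 0.25, adjusted p 0.000313. At day 2 the change of Sema3c (-0.68) was not called, though without NoDox_d2 replicate 1 it was called lower (-0.97, adjusted p 0.000243). Sema3d had 1.81, 0.996 and 1.71 CPM in D3Dox_d4, against 8.79, 5.41 and 4.73 CPM in NoDox_d4, again without overlap, with a change of -2.06 ± 0.41, adjusted p 0.00393. Sema3g, Sema4a and Sema6c were the semaphorins called higher. Sema3g, a low-level class 3 member, had 2.10, 1.59 and 1.75 CPM in D3Dox_d4, against 0.670, 0.325 and 0.769 CPM in NoDox_d4, a rise of 1.61 ± 0.40, adjusted p 0.0136. Sema4a had 2.53, 2.29 and 2.55 CPM in D3Dox_d4, against 0.986, 0.854 and 1.08 CPM in NoDox_d4, a rise of 1.33 ± 0.38, adjusted p 0.0261 whose call was lost without any single library of the comparison (adjusted p 0.0506 to 0.0780). Sema6c rose by 0.57 ± 0.11, adjusted p 0.00382. Neuron markers, all 8 higher at day 4, moved with these rises, and their part was not tested.

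**Figure D4:**
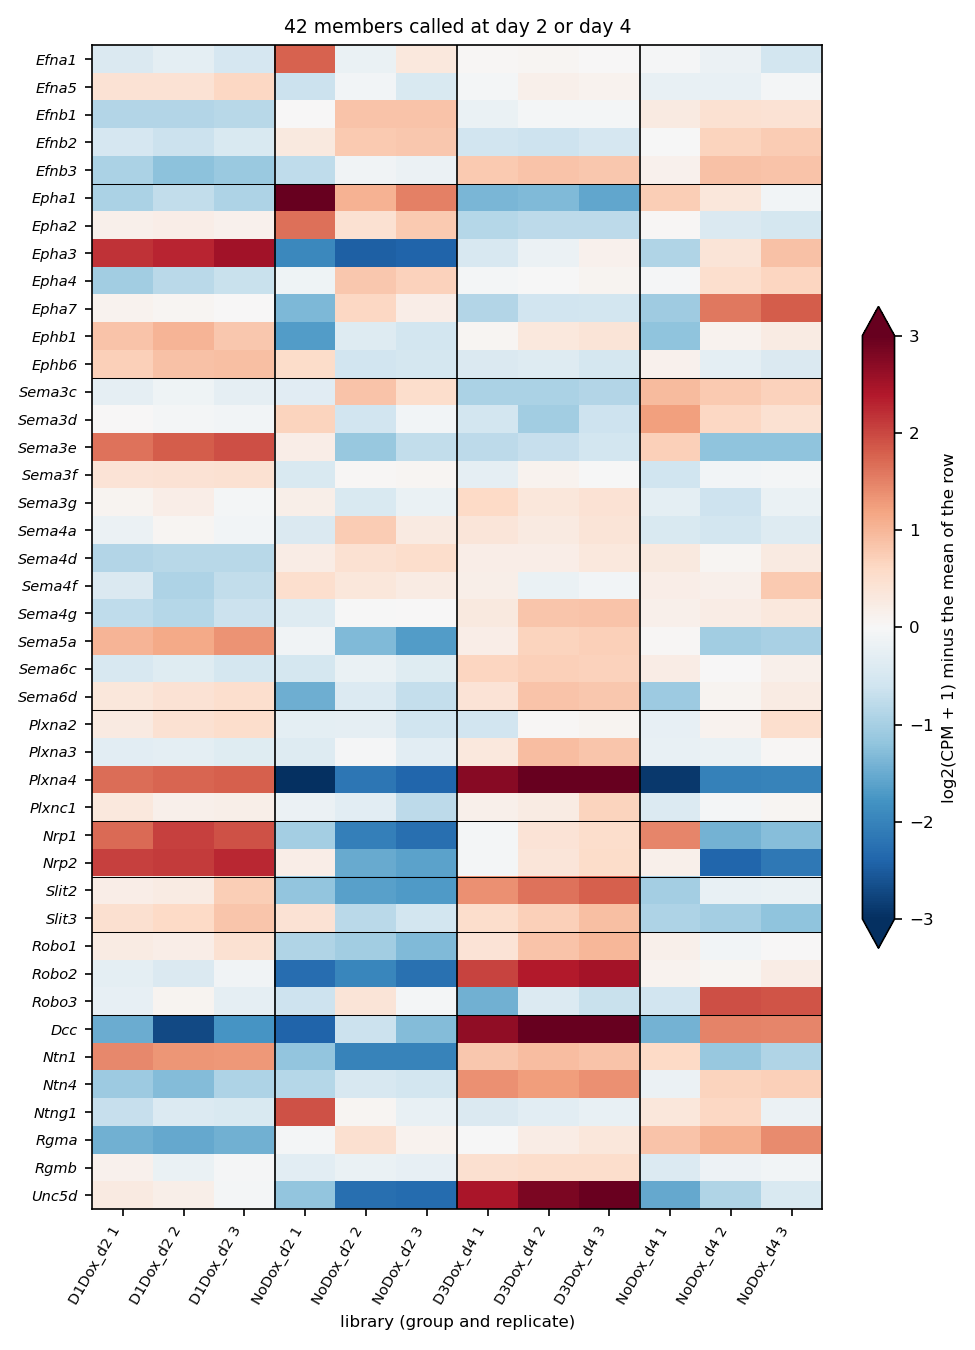
Level of the 42 members called at day 2 or day 4 in each of the 12 libraries, as log2(CPM + 1) minus the row's mean, with families set apart by lines and each Dox group left of its NoDox group. Plxna4, Unc5d and Robo2 are highest in D3Dox_d4, Nrp1, Nrp2 and Epha3 in D1Dox_d2, and the first column of both NoDox groups differs from the next 2 columns in many rows.

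Some members share a stretch of a chromosome (GRCm38). The class 3 semaphorins Sema3d, Sema3a, Sema3e and Sema3c lie in this order on the plus strand of chr5, between 12383385 and 17730268. Their calls differed, in that Sema3e was called higher at day 2 and Sema3c and Sema3d lower at day 4. Sema3a was called on neither day (1.30 ± 0.48 and -0.67 ± 0.48), and without NoDox_d4 replicate 1 its day 4 change turned positive and was called (0.50, adjusted p 0.0273). Epha3 lies farther off on the chromosome of Robo1 and Robo2, chr16, at 63543534-63864175, against 72308306-73046095 for Robo1 and 73891839-74411825 for Robo2, and all 3 were called higher at day 2. Efna1, Efna3 and Efna4 lie next to each other on the minus strand of chr3, from 89271733 to 89338028. Of these Efna1 was called lower at day 2, while Efna3 (-0.76 ± 0.27) and Efna4 (-0.02 ± 0.24) were not called. Without NoDox_d2 replicate 2 or replicate 3 Efna3 was called lower as well (-0.95, adjusted p 0.0382 and -0.98, adjusted p 0.0264). Robo4 and Robo3 are adjacent on opposite strands of chr9 (37401897-37415115 and 37415669-37433246). Counting ignored strand, so overlap with an antisense gene can alter a count. The largest overlaps were in Efna3, Efna4, Ntn5 and Plxna1, over 14.1%, 10.5%, 23.4% and 10.7% of their exon length. Among members called on both days, Epha1 had 6.01% and Rgma 4.65%.

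The difference between the days was tested directly, as the day 4 effect minus the day 2 effect. It was called positive for 9 members and negative for 7, 22.2% of those tested. The background was 6.66% positive, 6.24% negative and 12.9% in either direction. Epha3 had the largest difference, -6.23 ± 0.65, adjusted p 0.000316 (edgeR), with a rise at day 2 and no call at day 4. The 4 calls that stood when each library was left out in turn were Epha3, Sema4d, Ntn4 and Sema4g. Sema4d differed by 1.34 ± 0.16, adjusted p 0.000827, with a fall at day 2 and no call at day 4 (0.03 ± 0.11). Ntn4 differed by 1.49 ± 0.33, adjusted p 0.0148 and Sema4g by 1.13 ± 0.24, adjusted p 0.0116. Both had a negative change at day 2 and a positive one at day 4, but neither was called on both days. Ntn4 was called at day 4 and not at day 2, and Sema4g at day 2 and not at day 4 (0.46). The other negative differences were in Nrp1, Ntn1, Sema3e, Sema3c, Sema3d and Plxna2, and the other positive ones in Efna3, Efnb1, Ephb2, Plxna3, Sema4a and Sema6c. Each of these 12 lost its call without 1 or more single libraries, and without NoDox_d4 replicate 1 the differences of Nrp1, Ntn1 and Sema3e were -2.08, -1.18 and -1.74. Without both first NoDox replicates 25 positive and 20 negative differences were called, where the background was 18.7% and 15.8%. Slit2, Robo2 and Robo1 were not called, with differences of 0.10 ± 0.33 for Slit2, 0.20 ± 0.20 for Robo2 and -0.66 ± 0.22 for Robo1.

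Without doxycycline, more guidance genes were called higher than lower with time, but most lost their call when only these 6 libraries were fitted. In NoDox_d4, 15 members were called higher than in NoDox_d2 and 2 lower, 23.6% of those tested, where the background was 5.09% higher, 5.55% lower and 10.6% in either direction. The NoDox_d4 libraries lay above all NoDox_d2 libraries in 15 members (11.5% of all genes) and below in 4 (11.7%, 23.2% in either direction). Robo2 rose by 2.41 ± 0.15, adjusted p 1.89e-05 (edgeR), Robo1 by 1.13 ± 0.16, adjusted p 0.00126 and Slit2 by 1.09 ± 0.24, adjusted p 0.0136. These comparisons use the same NoDox libraries as the doxycycline effects. In the same comparison 4 of 6 primed epiblast markers were lower (summed 244 to 336 CPM in NoDox_d4, against 731 to 988 CPM in NoDox_d2) and 3 of 6 paraxial mesoderm markers higher (148 to 351 CPM in NoDox_d4, against 65.0 to 148 CPM in NoDox_d2). Of the mesoderm markers, Meox1 had 235 CPM in NoDox_d4 replicate 1, against 36.2 and 37.6 CPM in replicates 2 and 3. Tbx6 had 38.3 CPM in NoDox_d2 replicate 1, against 3.99 and 4.09 CPM in replicates 2 and 3. The part of either marker list was not tested. Slit1 had 28.4, 50.6 and 72.7 CPM in NoDox_d4, against 7.34, 22.5 and 18.1 CPM in NoDox_d2, a rise of 1.66 ± 0.39, adjusted p 0.0200. Dcc had 9.70, 79.2 and 78.4 CPM in NoDox_d4, against 4.41, 17.3 and 10.6 CPM in NoDox_d2, with overlap, and its change was 2.38 ± 0.67, adjusted p 0.0443, a call lost with the replicate number as a block (adjusted p 0.0528). Epha3 had 3.51, 10.002 and 14.6 CPM in NoDox_d4, against 1.20, 0.553 and 0.595 CPM in NoDox_d2, a rise of 3.56 ± 0.49, adjusted p 0.00118. Epha1 (-1.99 ± 0.48, adjusted p 0.0221) and Epha2 (-1.36 ± 0.25, adjusted p 0.00573) were the members that fell. Neo1 rose by 0.89 ± 0.12, Rgma by 0.96 ± 0.17, Ntn4 by 1.18 ± 0.23, Ntn1 by 1.47 ± 0.40, Ephb2 by 0.95 ± 0.18, Efnb3 by 1.00 ± 0.21, Efna2 by 0.52 ± 0.12, Sema5b by 1.27 ± 0.35 and Sema6c by 0.50 ± 0.11. Of these 17 calls, 9 stood when each of the 6 libraries was left out in turn, those of Efnb3, Epha2, Epha3, Ephb2, Neo1, Ntn4, Rgma, Robo1 and Robo2. The other 8 were lost without 1 or more libraries: Dcc (adjusted p 0.0952 to 0.138) and Sema5b (0.0907 to 0.143) without NoDox_d2 replicate 1 or 3 or NoDox_d4 replicate 2 or 3, Efna2 (0.0559 to 0.0751) without NoDox_d2 replicate 3 or NoDox_d4 replicate 2 or 3, Epha1 (0.0705 to 0.0911) without NoDox_d4 replicate 2 or 3, Ntn1 (0.103 to 0.117) without NoDox_d2 replicate 2 or 3, Sema6c (0.0545 to 0.0588) and Slit2 (0.0551 to 0.0577) without the replicate 3 of either group, and Slit1 (0.0837) without NoDox_d4 replicate 3. Without NoDox_d2 replicate 1 the fall of Epha1 was -0.97, and without NoDox_d4 replicate 1 the rise of Ntn1 was 0.69. With only these 6 libraries fitted, 3 members were called higher, where the background was 0.506% higher and 0.735% lower. Calls were fewer over all genes as well there, 1.24% in either direction. Epha1 and Epha2 lost their calls in that fit (adjusted p 0.173 and 0.102). Without both first replicates 30 members were higher (background 13.4%) and 11 lower (background 11%).

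Levels per gene length put the members on 1 scale, as counts per kilobase of exon, scaled to library size (RPKM) averaged over all 12 libraries. By this mean Efnb1 (33.3), Plxnb2 (30.5), Nrp2 (25.8), Neo1 (18.9), Epha2 (18.7), Unc5b (13.95), Slit3 (13.3), Sema4c (12.4), Ntn1 (11.6) and Robo1 (5.90) led their families, but the order within some families turned between groups. In D3Dox_d4 Dcc (16.7 RPKM) stood above Unc5b (5.67), Robo2 (13.01) above Robo1 (9.12) and Plxna4 (31.2) level with Plxnb2 (30.9). Ephb4 (14.8), Epha4 (11.8) and Ephb2 (9.44) stood above Epha2 (9.20) there. In NoDox_d4 Slit1 (8.54 RPKM) stood above Slit3 (5.55), and Ephb4 (17.1), Epha4 (15.5) and Epha7 (14.1) above Epha2 (13.3). The Ephb4 mean in NoDox_d4 came from 124, 57.3 and 57.0 CPM in replicates 1, 2 and 3. Sema3f stood above Sema4c in D1Dox_d2 (15.997 against 11.2 RPKM) and in NoDox_d2 (11.03 against 10.8 RPKM). Nrp2 averaged 67.4 RPKM in D1Dox_d2, against 9.25 RPKM in NoDox_d2, and Dcc 16.7 RPKM in D3Dox_d4, against 4.23 RPKM in NoDox_d4. The summed level of all members was 3808 to 4259 CPM in D1Dox_d2, against 2705 to 3253 CPM in NoDox_d2, and 3815 to 5028 CPM in D3Dox_d4, against 3275 to 3609 CPM in NoDox_d4. The groups of each day did not overlap in this sum, although the members' median change at day 2 was -0.09. Without Nrp2, the member with the largest gap in CPM at day 2, the sum was 3062 to 3387 CPM in D1Dox_d2, against 2647 to 3046 CPM in NoDox_d2.

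Beyond the members, 66 other genes of the pathway were read from the same fit. They include cytoplasmic adaptors and actin regulators, but also further ligands and cell surface proteins. At day 2, 16 were called higher and 9 lower in D1Dox_d2, 37.9% of them against 28.4% of all genes. At day 4, 15 were called higher and 4 lower in D3Dox_d4, 28.8% against 23.5% of all genes. The largest rises among called genes at day 2 were in Flrt2 (4.16 ± 0.56), which encodes an Unc5d ligand, Mical2 (2.47 ± 0.44), of a family of actin-oxidizing enzymes that act after plexins, and Nell2 (2.35 ± 0.33), a secreted ligand of Robo3. The largest called falls were in Trim67 (-2.07 ± 0.50), a brain TRIM protein related to the Dcc-binding Trim9, Pak1 (-1.14 ± 0.08), a kinase activated by Rac, and Hfe2 (-1.02 ± 0.34), the RGM family member of iron metabolism. Without NoDox_d2 replicate 1 the changes were 5.15 for Flrt2, 3.18 for Mical2 and -1.03 for Trim67. The call of Hfe2 was lost without any single library except NoDox_d2 replicate 1 (adjusted p 0.0644 to 0.160). Flrt2 had 133, 142 and 165 CPM in D1Dox_d2, against 16.3, 4.23 and 3.98 CPM in NoDox_d2, and Nell2 had 32.2, 33.6 and 35.7 CPM in D1Dox_d2, against 5.58, 7.11 and 7.18 CPM in NoDox_d2. At day 4 the largest called rises were in L1cam (2.66 ± 0.26), an adhesion molecule in the Sema3a receptor complex, Dpysl3 (1.78 ± 0.20), a relative of the semaphorin mediator Dpysl2, and Cntn2 (1.76 ± 0.27), an axonal adhesion molecule. The largest called falls were in Tiam1 (-0.89 ± 0.12), a Rac activator, Met (-0.69 ± 0.16), a receptor kinase that associates with class B plexins, and Farp1 (-0.54 ± 0.17), which acts with class A plexins. The call of Farp1 was lost without any single D3Dox_d4 library or NoDox_d4 replicate 1 (adjusted p 0.0654 to 0.143), and without NoDox_d4 replicate 1 its change was -0.29. L1cam had 30.0, 38.4 and 45.5 CPM in D3Dox_d4, against 3.79, 6.67 and 7.57 CPM in NoDox_d4, and Tiam1 had 22.1, 27.4 and 29.5 CPM in D3Dox_d4, against 48.5, 45.9 and 52.6 CPM in NoDox_d4. L1cam, Dpysl3 and Cntn2 are also expressed by neurons, whose 8 markers were all higher in D3Dox_d4, and the part of neurons was not tested.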

How the data were processed

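Paired-end reads of 150 bases were trimmed to a minimum of 50 bases with Trim Galore, per the labels' protocols. Per the submitters' processing notes, STAR, featureCounts and DESeq2 were used with GRCm38. Per the file headers, the deposited counts are raw read pairs per gene from featureCounts 2.0.1 with GENCODE vM25 and no strand setting. From these counts, genes were filtered with filterByExpr, scaled by TMM and fitted over all 12 libraries by group with edgeR 4.0.16 (quasi-likelihood F-test, 8 residual degrees of freedom, limma 3.58.1, R 4.3.3). P-values were adjusted by Benjamini-Hochberg over 18109 genes and called under 0.05, and ± is the SE. The pipeline was tested on simulated data. Members, gene lists and tests were chosen with earlier results of these data known. Values in every library are given for at most 5 members per system and comparison, the called ones with the largest absolute log2 fold change whose higher group averaged 1 CPM or more, and for partners and changes that rest on a first NoDox replicate, some chosen after their values were seen. Of 55487 genes, 55141 symbols matched the reference table, and 11 members had no RefSeq promoter entry. Alternatives were other scalings and filters, DESeq2 1.42.0, a replicate block, fits of only the libraries compared, and leaving out libraries. Same-numbered NoDox_d4 and NoDox_d2 libraries deviated together (r 0.308 to 0.545 in 3 of 3 pairs, pairing read from the data). Replicates 2 and 3 of these groups did so across numbers as well (r 0.325 and 0.416), so only replicate 1 is set apart by number. For that comparison the blocked value is given where it changes a call. No 2 libraries held identical counts. Floors of 3 counts cover counting error only.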

Additional observations from a re-analysis of the deposited data

Results flagged for a closer look

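For 16 members the effect of doxycycline differed between day 4 and day 2 by the interaction test (edgeR, adjusted p under 0.05), given as the day 4 minus the day 2 log2 fold change. These 16 were 22.2% of the members tested, against 12.9% of all genes tested. Among Eph receptors and ephrins these were Epha3 (-6.23), Efna3 (1.57), Efnb1 (1.02) and Ephb2 (0.97). In the netrin system they were Ntn1 (-1.98) and Ntn4 (1.49). Among neuropilins and plexins they were Nrp1 (-3.95), Plxna2 (-1.09) and Plxna3 (0.94). Among semaphorins the negative ones were Sema3e (-2.76), Sema3d (-1.88) and Sema3c (-1.16), and the positive ones Sema4a (1.86), Sema4d (1.34), Sema4g (1.13) and Sema6c (0.68). Of these, 4 were called whichever library was left out, Epha3, Ntn4, Sema4d and Sema4g.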

How the results depend on the processing

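No member called reversed its direction under any alternative run. Other scalings (DESeq2 size factors in edgeR, upper quartile) and the stricter filter kept every count of calls within 1.5 times. Without a filter 18 differences between days were positive (3.8% of all genes), and 4 members fell with time in NoDox (2.98%). DESeq2 called 18 positive (9.75%) and 12 negative differences (9.19%), and 6 falls with time (7.98%). Without both first NoDox replicates, 25 members were lower at day 2 (26.4% of all genes). At day 4, 33 were higher (20.6%) and 18 lower (17.9%). In the same run 25 differences were positive (18.7%) and 20 negative (15.8%), and 30 members were higher (13.4%) and 11 lower (11%) with time. With only the libraries compared, edgeR called 3 members higher (0.506% of all genes) and 0 lower (0.735%) with time. At an unadjusted p under 0.05 these counts were 17 and 4, for which no share over all genes was counted. The Mixl1 change at day 2, with only its libraries fitted, was 3.62 with an adjusted p of 0.120 (edgeR).

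Leaving out 1 library gave 14 to 20 members higher and 7 to 18 lower at day 2, 11 to 21 higher and 5 to 10 lower at day 4, 3 (without D1Dox_d2 replicate 3) to 20 positive and 1 (without D1Dox_d2 replicate 2 or 3, D3Dox_d4 replicate 1 or NoDox_d2 replicate 3) to 13 negative differences, and 9 (without replicate 3 of either group) to 24 higher and 1 (without NoDox_d4 replicate 2 or 3) to 6 lower with time. The highest counts of differences came without NoDox_d2 replicate 1 and those with time without NoDox_d4 replicate 1. The share of all genes called moved as well, over 9.72% to 20.2% higher and 6.43% to 19.5% lower at day 2. At day 4 it was 9.16% to 13.2% higher and 5.47% to 9.63% lower. For the differences it was 3.36% to 14.2% positive and 3.18% to 12.7% negative, and with time 2.74% to 9.05% higher and 2.86% to 8.01% lower. The Mixl1 change at day 2 ranged over 3.04 to 8.74. The cause of these shifts was not tested. With a replicate block, 18 members were higher (15.6% of all genes) and 12 lower (12.6%) at day 2. At day 4, 19 were higher (13.9%) and 8 lower (9.95%). There were 12 positive (7%) and 10 negative differences (6.52%), and 15 members higher (4.94%) and 2 lower (5.23%) with time. The calls it ended were Plxnc1 at day 2 (adjusted p 0.0517), Sema4a in the difference (0.0508) and Dcc with time (0.0528). Same-numbered libraries had deviations correlating at -0.125 to -0.0334 at day 2 and -0.0666 to 0.0369 at day 4, so no pairing by number was seen in the doxycycline comparisons. The labels do not say whether a number marks a shared batch, and so few correlations cannot exclude one.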
